A study of Mus musculus with 20 samples.

Results

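Hepatocyte identity is held by a small network of transcription factors, and 9 of them were followed here in livers in which the RNA-binding protein HuR had been knocked down. They are the nuclear receptors HNF4A and NR5A2, the forkhead factors FOXA1, FOXA2 and FOXA3, the leucine zipper factors CEBPA and CEBPB, and the homeodomain factors ONECUT1 and PROX1. They were chosen by name, ignoring case, and each was found once as a protein-coding gene among 60607 genes of the human table and once among 55335 genes of the mouse table. All 9 passed the filter on low values (a mean of at least 1 TPM, a read level scaled by transcript length and by the liver's total) in both tables, against 12738 and 15090 genes in all.

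The data are total RNA-seq profiles of 20 livers. WT livers came from male C57BL/6 mice, bought at 8 weeks of age and matched for age, which received intravenously an adenovirus carrying either HuR shRNA (HuR KD, n = 6) or the LacZ control (written Lacz in the labels, n = 6). Humanized livers came from TK-NOG (TKNOG) mice, which are severely immune-deficient NOG mice whose hepatocytes carry a herpes simplex virus thymidine kinase transgene under the mouse albumin promoter. Ganciclovir given at 8 to 9 weeks of age killed the cells with the transgene, primary human hepatocytes were transplanted through the spleen, and mice with more than 0.5 mg/ml of human albumin in serum 8 to 12 weeks later received the HuR shRNA virus (n = 4) or the LacZ virus (n = 4). All livers, controls included, had therefore been exposed to adenovirus for 7 days and were taken after a fast of 4 h. The shRNA was directed at human HuR in humanized mice and at mouse HuR in WT mice. Each value is 1 liver. The study states that its human hepatocytes came from few donors. The labels used here name no donor, so whether humanized livers shared one cannot be told. Non-parenchymal cells and any remaining hepatocytes of a humanized liver are those of the mouse host, and the human table lists human genes only. Species, host strain, immune state, the shRNA used and the read length differ together between the sets, so that their parts in any difference between humanized and WT livers cannot be told apart.

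In liver, these factors bind the control regions of one another and of the genes for secreted plasma proteins, lipid transport and bile acid synthesis. FOXA factors can bind closed chromatin and let other factors in, HNF4A and CEBPA maintain broad hepatocyte gene expression, and CEBPB is induced in the acute-phase response and in regeneration. HuR, encoded by ELAVL1, binds U-rich and AU-rich stretches, mostly in 3′ untranslated regions, and is best known for keeping the RNAs it binds from being degraded.

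The 3′ untranslated regions of the mouse members were therefore read for letters of that kind. The longest annotated region of each gene was taken from GENCODE M21 on GRCm38, where all 9 gene identifiers were those of the mouse table, and only the transcript strand was searched. Foxa1, on chromosome 12 from 57540628 to 57546916 on the minus strand, has a region of 1398 bases with 4 copies of the pentamer ATTTA, or 2.86 per kb. All protein-coding genes together had 1.93 per kb, and 82.9% of 2830 regions within 20% of the same length held at least 1 copy. Foxa2, which spans 148042877 to 148046969 of chromosome 2 and is likewise read from the minus strand, has 3 copies in 637 bases, the first pair of them directly adjoining, and 58.4% of 2229 regions of like length held one. Foxa3 has none in 854 bases, Cebpa none in 1555 bases and Cebpb, a gene of 1 exon on the plus strand of chromosome 2 from 167688915 to 167690418, none in 506 bases. Hnf4a had 2, Nr5a2 had 4, Onecut1 had 7 and Prox1, with the longest region of 5185 bases, had 16. Of regions of like length, 86.4%, 66.1%, 20.4% and 14.7% held at least as many copies as these genes. For Foxa1 and Foxa2 the same shares were 30.1% and 14.7%. The longer AU-rich word TTATTTATT, which contains the pentamer, was in none of the 9 and in 7.7% of 21028 regions. The sites of Foxa1 and Foxa2 are shown because FOXA1 is the member whose response differed between the sets, with the pentamer in capitals and 10 bases on each side. It was the human gene that was lower with HuR KD, whereas mouse Foxa1 had a log2 change of 0.02 (limma adjusted p = 0.972). The first Foxa2 window also holds, in lower case, the second copy that adjoins the first:
Foxa1 chr12:57541747-57541771: ttctggcaacATTTAatgatccaca
Foxa1 chr12:57541651-57541675: tgcagggcttATTTAaaaagaagat
Foxa1 chr12:57540829-57540853: ctcaatgttaATTTAttgcatggtt
Foxa1 chr12:57540645-57540669: cagttaaggaATTTAaataaatcac
Foxa2 chr2:148042970-148042994: ctcgggtctgATTTAatttatggtt
Foxa2 chr2:148042943-148042967: tgcgtgctttATTTAtggcttataa

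These matches describe the letters of the mouse annotation and are not measured binding sites, and the human regions were not analysed here. Genes on the other strand overlap Hnf4a (Hnf4aos), Prox1 (Prox1os and Gm28172), Cebpa (Gm45091) and Cebpb (Tmem189); the libraries were strand-specific, but the strand setting of the counting is not given in the sources used here, so reads of such pairs may not be separated.

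HuR itself was lower in every treated liver. ELAVL1 stood at 3.46 ± 0.763 TPM (SD, n = 4) in humanized HuR KD livers, 61.0% of the 5.67 ± 0.623 TPM of LacZ livers, and Elavl1 at 4.91 ± 0.694 TPM (SD, n = 6) in WT HuR KD livers, 51.7% of the 9.50 ± 0.789 TPM of LacZ livers, with no overlap in either set (limma adjusted p = 0.214 and 0.00105). Reads assigned to genes, recovered from the TPM steps, ranged from 2670469 to 20302454 in humanized livers. In WT livers they ranged from 12960373 to 44668272, apart from LacZ 2 with 1423985. For humanized livers these are reads on human genes. Depth there thus holds both the sequencing of the library and the human share of its RNA, which cannot be told apart here. Humanized HuR KD 4 and LacZ 2 were deeper than the other 6 and had 49.1% of their TPM on mitochondrial ribosomal RNA, against 27.2% to 36.0% in those 6. Human albumin was at 32380 to 73361 TPM in humanized livers, whereas none of the 9 endothelial, 9 macrophage, 9 lymphocyte or 6 neutrophil markers reached a mean of 1 TPM in the human table. A listed 0 there need not be a true absence, since the hepatocyte enzyme gene TDO2 was listed at 0 in all 8 livers.

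The first question was whether the factors changed with HuR KD in human hepatocytes. FOXA1 fell to 50.8% of its control level at the unadjusted threshold, and none of the other 8 was called. FOXA1, a pioneer factor of liver and other endodermal tissues, was at 4.36, 6.26, 5.09 and 7.84 TPM in HuR KD livers 1 to 4 and at 8.97, 11.5, 13.1 and 12.8 TPM in LacZ livers 1 to 4. All HuR KD livers lay below all LacZ livers. The means were 5.89 ± 1.52 and 11.6 ± 1.88 TPM (SD, n = 4 each), 50.8% of control, from 30 to 557 reads per liver. On the log2(TPM + 1) scale the change was -0.88 with an SE of 0.19 and a 95% interval from -1.31 to -0.45 (limma p = 0.00115, adjusted p = 0.104 over all genes tested; two-sided exact permutation p = 0.0286). A permutation p of 0.0286 is the smallest that 4 against 4 livers allow. Leaving out the pair of deeper livers gave -1.01, with a limma adjusted p of 0.0619. Thus FOXA1 passed the unadjusted threshold of 0.05 that the study used, and missed it after Benjamini-Hochberg adjustment.

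**Figure D1:**
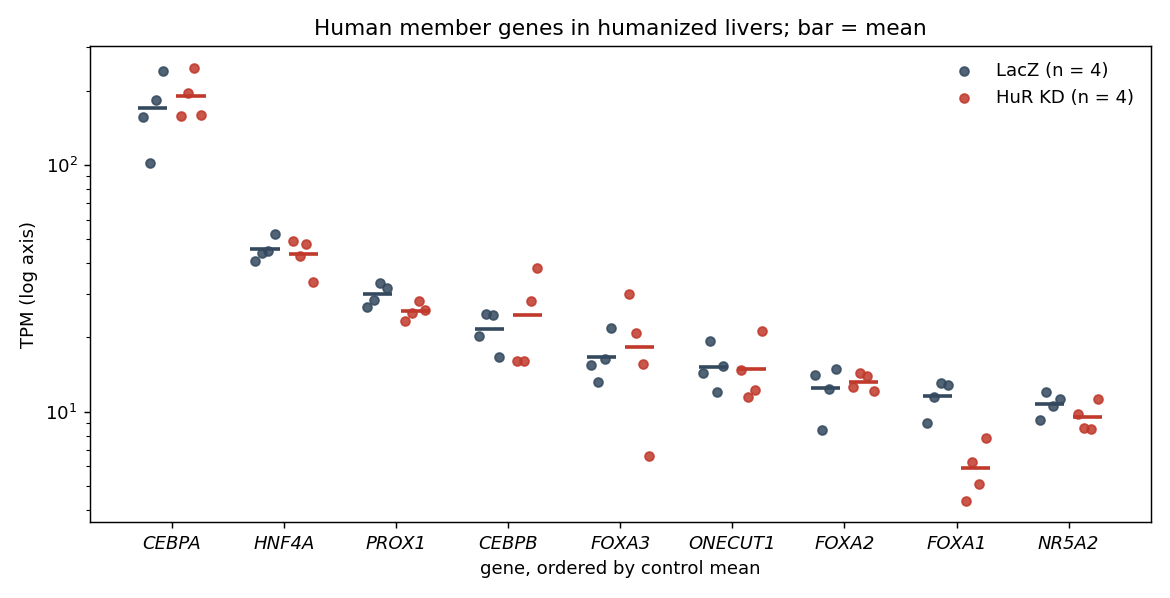
TPM of the 9 human genes in each humanized liver on a log axis, with LacZ livers in grey, HuR KD livers in red and bars at the means of 4 livers. The groups are apart for FOXA1, at 4.36 to 7.84 against 8.97 to 13.1 TPM, and overlap for every other gene.

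The other forkhead genes, FOXA2 and FOXA3, were not called. FOXA2 was at 12.6, 14.3, 13.9 and 12.1 TPM in HuR KD livers 1 to 4 and at 14.1, 8.43, 12.4 and 14.8 TPM in LacZ livers 1 to 4. The groups overlapped, with the lowest value in LacZ 2, and the log2 change was 0.11 with a 95% interval from -0.30 to 0.51 (limma adjusted p = 0.873). FOXA3, which had the highest mean of the 3, was at 29.9, 20.7, 15.6 and 6.62 TPM with HuR KD and at 15.5, 13.2, 16.3 and 21.9 TPM with LacZ. The HuR KD livers held both the highest and the lowest FOXA3 value of the set, and the interval of its log2 change was correspondingly wide, from -0.88 to 0.82 around -0.03 (limma adjusted p = 0.987).

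FOXA3 moved with depth, here the reads on human genes. Its level was highest in HuR KD 1, the library with the fewest reads, and lowest in HuR KD 4, the one with the most. Over the 8 humanized livers the correlation of log2(TPM + 1) with log2 reads was r = -0.89 (exact permutation p = 0.000248, adjusted over 18 such relations 0.00446; rho = -0.98, exact permutation p = 0.000397, adjusted 0.00714), and it was -0.92 without the 2 livers farthest from the median depth, HuR KD 4 and LacZ 2. CEBPB moved the other way, with r = 0.88 (exact permutation p = 0.00417, adjusted 0.025; rho = 0.93, exact permutation p = 0.00223, adjusted 0.0201) and 0.94 without those 2 livers. FOXA1 gave r = 0.27 (exact permutation p = 0.513; rho = 0.12, exact permutation p = 0.793), or 0.16 without the 2 farthest. These relations were computed after the values had been seen. HuR KD 4 and LacZ 2 also had the highest share of mitochondrial ribosomal RNA. In the other livers, from fewest to most reads, that share was 33.6%, 34.1%, 27.2%, 29.1%, 29.5% and 36.0%. Which property of the libraries the levels followed was not tested.

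CEBPB, the factor of the acute-phase response, was at 16.04, 16.07, 28.1 and 38.1 TPM in HuR KD livers 1 to 4 and at 20.3, 24.9, 24.5 and 16.7 TPM in LacZ livers 1 to 4. The 2 shallow HuR KD livers lay below all LacZ livers and the 2 deeper ones above them, and the log2 change was 0.10 with a 95% interval from -0.53 to 0.74 (limma adjusted p = 0.934). CEBPA, the main liver form that restrains proliferation, was at 158, 197, 248 and 159 TPM with HuR KD and at 156, 102, 183 and 241 TPM with LacZ. LacZ 2 was again the lowest, the groups overlapped, and the log2 change was 0.20 with an interval from -0.39 to 0.79 (limma adjusted p = 0.836).

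HNF4A, the nuclear receptor most closely tied to the mature hepatocyte state, was at 49.3, 42.8, 47.7 and 33.7 TPM in HuR KD livers 1 to 4 and at 40.7, 43.9, 45.0 and 52.6 TPM in LacZ livers 1 to 4. Only HuR KD 4 lay outside the control range. The means were 43.4 ± 7.04 and 45.5 ± 5.03 TPM (SD, n = 4 each), and the log2 change of -0.08 had an interval from -0.43 to 0.27 (limma adjusted p = 0.901). NR5A2, a nuclear receptor of bile acid and cholesterol genes, was at 9.77, 8.61, 8.53 and 11.2 TPM with HuR KD and at 9.20, 12.0, 10.5 and 11.2 TPM with LacZ. Its groups overlapped, with a log2 change of -0.16 and an interval from -0.48 to 0.16 (limma adjusted p = 0.732).

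PROX1, a homeodomain factor that marks the hepatoblast from early on, was at 23.4, 25.2, 28.0 and 25.8 TPM in HuR KD livers 1 to 4 and at 26.5, 28.5, 33.4 and 31.6 TPM in LacZ livers 1 to 4. In 3 of 4 HuR KD livers it lay below all LacZ livers. The log2 change was -0.22 with an interval from -0.51 to 0.07, and it was not called (limma p = 0.123, adjusted p = 0.568; exact permutation p = 0.0571). ONECUT1, also known as HNF6, was at 14.7, 11.5, 12.2 and 21.3 TPM with HuR KD and at 14.4, 19.3, 12.0 and 15.3 TPM with LacZ. The highest values were those of the deep livers HuR KD 4 and LacZ 2, the groups overlapped, and the log2 change was -0.05 with an interval from -0.53 to 0.43 (limma adjusted p = 0.962).

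By limma at an unadjusted p under 0.05, 1 of the 9 human members was called, and it was lower with HuR KD. Of all 12738 genes tested, 11.5% were called in either direction and 7.87% were lower, so that 1 of 9 is close to the background. After adjustment the count was 0 of 9, against 0.212% of all genes, and voom on the recovered reads likewise gave 1 of 9 before and 0 of 9 after adjustment. FOXA1 was the 1 member with all HuR KD livers below all controls, as were 5.03% of all genes, and no member had all of them above, as had 2.13%. The median log2 change was -0.05 over the members and -0.05 over all genes, and 3 of 9 members had a positive estimate. Of the called genes as a whole 31.3% were higher with HuR KD, and 47.6% when TPM were rescaled to protein-coding genes. FOXA1 stayed lower under that scaling, at -0.87. Without the pair of deeper livers 1 of 9 members was again called, and CEBPA stood at 0.054, ONECUT1 at -0.11, PROX1 at -0.24 and NR5A2 at -0.18.

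Conventional mice were then examined for the same factors. Cebpb was lower with HuR KD, and neither Foxa1 nor any of the other 7 was called. In WT HuR KD livers Cebpb had a lowest, median and highest value of 98.7, 132 and 174 TPM, and in LacZ livers of 139, 198 and 237 TPM. The groups overlapped, although all 6 HuR KD livers lay below the control median and 3 of 6 below every control. The means were 134 ± 30.8 and 192 ± 34.5 TPM (SD, n = 6 each), 69.9% of control, and the log2 change was -0.53 with an SE of 0.16 and a 95% interval from -0.87 to -0.18 (limma p = 0.0062, adjusted p = 0.134; exact permutation p = 0.0216). Its highest control was LacZ 2, the shallow library, in which 210 reads stood behind the value. Without that library the log2 change was -0.46 (limma adjusted p = 0.17).

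**Figure D2:**
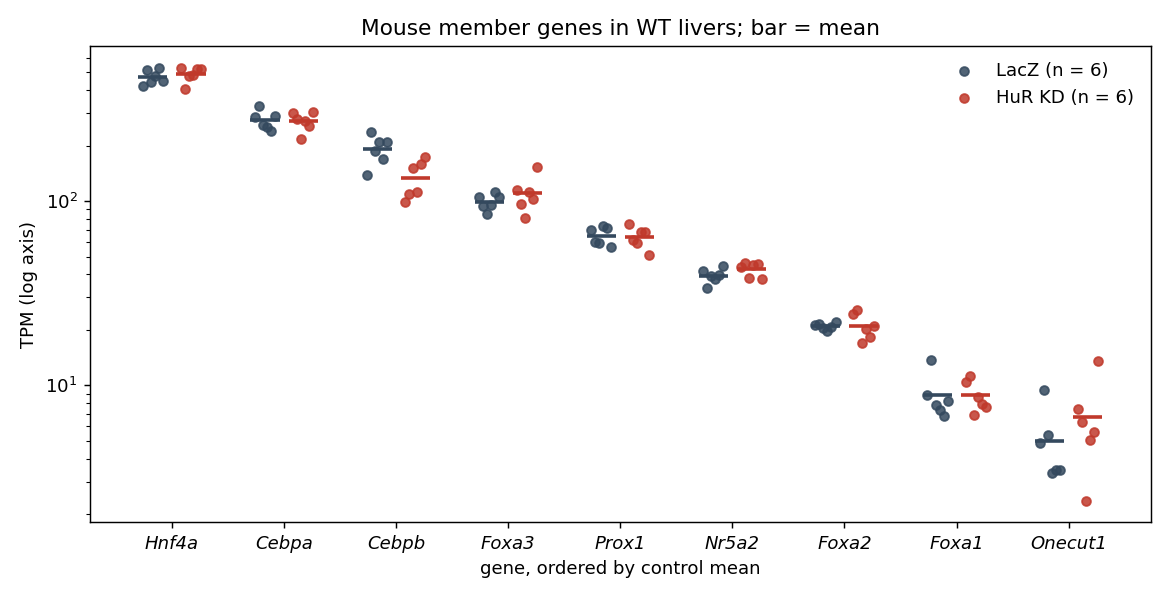
TPM of the 9 mouse genes in each WT liver on a log axis, with LacZ livers in grey, HuR KD livers in red and bars at the means of 6 livers. Cebpb is the member whose means lie farthest apart relative to their spread, at 134 against 192 TPM, and all 9 genes overlap between the groups.

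Macrophages also express Cebpb, and markers of these cells moved in the same direction in WT livers. Of 9 macrophage markers, all tested, 5 were called lower, where 6.94% of all genes were, and none higher, and the summed level of the list was 446 to 748 TPM in HuR KD livers and 624 to 850 TPM in LacZ livers. Clec4f, a lectin of Kupffer cells, had a log2 change of -0.75 (limma adjusted p = 0.0613), Cd68 of -0.40 (limma adjusted p = 0.114) and Cd5l of -0.42 (limma adjusted p = 0.151). None of the 9 was at 0. Among lymphocyte markers 2 of 4 tested, the granzyme genes Gzma and Gzmb, were called lower, at -0.77 and -0.60, with the list summing to 5.21 to 12.8 TPM against 8.07 to 20.3 TPM. Of 7 stellate markers tested 1 was called lower, 3 had a positive estimate and the median was -0.00013. That gene, Lrat, stood at -0.32 and lost its call under 5 of 21 alternative settings. Of 9 endothelial markers tested 1 was called higher, 3 had a positive estimate and the median was -0.02. That gene, Stab2 of sinusoidal endothelium, stood at 0.18 and lost its call under 11 of 21. Among 4 neutrophil and 3 biliary or progenitor markers tested, none was called. The part of these cells in the Cebpb result was not tested, and in bulk tissue fewer cells of a type and less RNA per cell cannot be told apart.

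Hnf4a was the most abundant member. Its lowest, median and highest values were 407, 501 and 525 TPM with HuR KD and 419, 463 and 530 TPM with LacZ, and the groups overlapped. The log2 change of 0.05 had an interval from -0.13 to 0.22 (limma adjusted p = 0.831). Nr5a2 ran from 37.7 over a median of 44.3 to 46.1 TPM with HuR KD and from 33.9 over 39.4 to 44.3 TPM with LacZ. It lay above every control in 3 of 6 HuR KD livers, and its log2 change was 0.12 with an interval from -0.05 to 0.28 (limma adjusted p = 0.508).

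Foxa1 had a lowest, median and highest value of 6.93, 8.29 and 11.2 TPM in HuR KD livers and of 6.78, 8.03 and 13.8 TPM in LacZ livers. The highest value was that of LacZ 2 with 27 reads, the groups overlapped, and the log2 change was 0.02 with an interval from -0.32 to 0.35 (limma adjusted p = 0.972). Without LacZ 2 the log2 change was 0.14. Foxa2 ranged from 16.9 over 20.6 to 25.6 TPM with HuR KD and from 19.6 over 21.0 to 22.1 TPM with LacZ. The HuR KD livers were spread more widely, at an SD of 3.38 against 0.869 TPM, around a log2 change of -0.0054 with an interval from -0.20 to 0.19 (limma adjusted p = 0.984). Foxa3 ranged from 80.8 over 108 to 153 TPM and from 84.6 over 100 to 112 TPM, and its log2 change of 0.12 had an interval from -0.15 to 0.40 (limma adjusted p = 0.693).

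Cebpa, at 218, 275 and 305 TPM with HuR KD and 239, 273 and 327 TPM with LacZ (lowest, median and highest), overlapped throughout, and its log2 change was -0.02 with an interval from -0.23 to 0.18 (limma adjusted p = 0.936). Cebpa was the 1 mouse gene whose level went with depth past the adjusted threshold by r, at -0.64 over 12 livers (permutation p = 0.00184, adjusted 0.0166), though not by rho (-0.69, permutation p = 0.0159, adjusted 0.0715), and r was -0.45 without the 2 livers farthest from the median depth. Prox1, at 51.0, 64.8 and 75.4 TPM with HuR KD and 56.2, 65.0 and 72.9 TPM with LacZ, had a log2 change of -0.02 with an interval from -0.24 to 0.19 (limma adjusted p = 0.932). Onecut1 was low and variable, at 2.37, 5.94 and 13.5 TPM with HuR KD and 3.32, 4.14 and 9.48 TPM with LacZ. Its highest values were those of HuR KD 6 and LacZ 2, the libraries with the fewest reads in their groups, and its log2 change of 0.31 had an interval from -0.36 to 0.98 (limma adjusted p = 0.684).

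In WT livers 1 of 9 members was called by limma at an unadjusted p under 0.05 and 0 of 9 after adjustment. The background was 16% of 15090 genes in either direction, 6.94% for genes lower with HuR KD and 0.888% after adjustment, and 1 of 9 does not stand above it. No member had all HuR KD livers below all controls or above all controls, as had 1.23% and 1.25% of all genes. The median log2 change was 0.02 over the members and 0.03 over all genes, and 5 of 9 members had a positive estimate. Summed over the 9 genes, the level was 1147 ± 93.0 TPM in HuR KD and 1178 ± 77.2 TPM in LacZ livers (SD, n = 6 each), and in humanized livers 346 ± 43.0 and 334 ± 65.9 TPM (SD, n = 4 each).

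**Figure D3:**
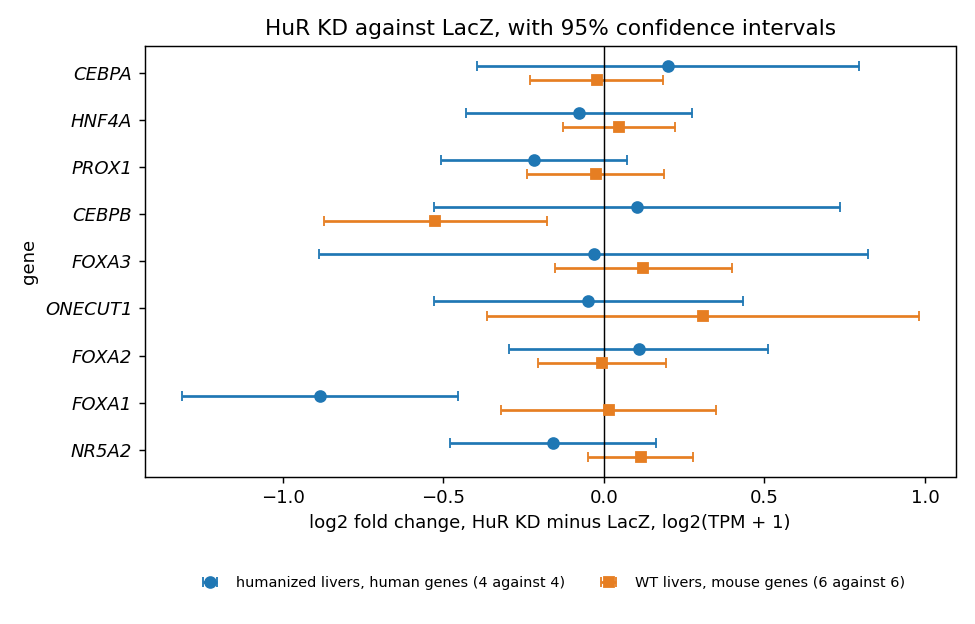
Log2 fold change of each member, HuR KD minus LacZ, on the log2(TPM + 1) scale, with its 95% confidence interval from limma, for humanized livers (circles) and WT livers (squares). The intervals leave out 0 for FOXA1 in humanized livers, at -0.88, and for Cebpb in WT livers, at -0.53.

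Because a call in one set and not in the other does not show a difference, the responses were compared directly in a joint limma fit over 8202 genes of the same symbol tested in both sets. FOXA1 differed by -0.90 between humanized and WT livers, with an SE of 0.24 and a 95% interval from -1.40 to -0.39 (limma adjusted p = 0.0336). It was the 1 member past the adjusted threshold, as were 5.01% of all pairs, and the 1 past the unadjusted threshold, as were 19.7%. When single livers were left out the difference ran from -1.03 to -0.79. In 12 of the 20 fits with 1 liver left out, namely those without humanized HuR KD 1, 2 or 3, humanized LacZ 3 or 4, WT HuR KD 1, 2 or 4, or WT LacZ 3, 4, 5 or 6, its adjusted p passed 0.05 and reached at most 0.0801. CEBPB differed by 0.63 in the other direction, with an interval from -0.0064 to 1.26 (limma adjusted p = 0.26), and NR5A2 by -0.27 (limma adjusted p = 0.308). The remaining 6 members had adjusted p-values of 0.55 to 0.866, and their differences lay between -0.36 and 0.22.

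Human bile duct and progenitor markers were read beside FOXA1. Of 12 such genes 8 were tested and 3 were called lower, where 7.87% of all genes were, and 0 after adjustment. All 8 had a negative estimate, whereas 5440 of 12738 genes had a positive one. SOX4 changed by -1.24 (limma adjusted p = 0.262), SPP1 by -1.61 (limma adjusted p = 0.4) and EPCAM by -1.17 (limma adjusted p = 0.424), and all 3 overlapped between the groups. The call of EPCAM was lost under 12 of 18 alternative settings, that of SPP1 under 7 of 17 and that of SOX4 under 1 of 17, voom, where EPCAM stood at -0.63. The list summed to 19.0 to 47.3 TPM in HuR KD livers and to 34.5 to 77.5 TPM in LacZ livers. KRT19, a defining duct marker, averaged 0.168 and 0.175 TPM, and KRT23 was listed at 0 in every liver. Of 3 stellate markers tested 1 was called lower, RELN at -1.19, while ACTA2 stood at 0.35 and PDGFRB, the median of the list, at -0.04. The part of such cells or states in the FOXA1 result was not tested.

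Among factors that work with the members, NFIB and ZBTB20 were lower and CREB3L3 and NR1I3 higher in humanized livers, while Nr1i3 was lower in WT livers. Of 32 such partners, 29 were tested in humanized livers, where 4 were called higher and 4 lower (11.5% of all genes were called), and 31 in WT livers, where 1 was higher and 1 lower (16% of all genes). After limma adjustment the counts were 0 of 29 and 1 of 31. In humanized livers NFIB, a nuclear factor I gene, was at 5.24 ± 0.621 TPM with HuR KD and 10.2 ± 0.887 TPM with LacZ (SD, n = 4 each), a log2 change of -0.84 with no overlap (limma adjusted p = 0.0528). ZBTB20, a zinc finger repressor of fetal genes, had a log2 change of -0.62 and NR2F6, an orphan nuclear receptor, of -0.51, both without overlap between groups (limma adjusted p = 0.163 and 0.264). CREB3L3, the fasting-responsive factor that is activated at the endoplasmic reticulum, went from 14.7 ± 3.01 to 26.9 ± 4.29 TPM, a log2 change of 0.84 (limma adjusted p = 0.111), and RXRA, the shared partner of many nuclear receptors, rose by 0.46 on that scale (limma adjusted p = 0.161).

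NR1I3, the xenobiotic receptor CAR, was called in opposite directions. In humanized livers it rose from 16.7 ± 2.95 to 26.0 ± 1.78 TPM (SD, n = 4 each) with no overlap, a log2 change of 0.62 (limma adjusted p = 0.139). In WT livers Nr1i3 fell from 238 ± 45.0 to 152 ± 17.8 TPM (SD, n = 6 each), a log2 change of -0.63 (limma adjusted p = 0.0454). Over 21 alternative settings its limma adjusted p ran from 0.0082 to 0.12, so it did not pass adjustment under all of them. The difference between the sets was 1.25 with a 95% interval from 0.84 to 1.67 (limma adjusted p = 0.00114). Nr1i2, the related receptor PXR, rose by 0.18 in WT livers (limma adjusted p = 0.276), a call lost under 9 of 21 alternative settings, among them median-of-ratios and quantile scaling. NFIB, CREB3L3 and ZBTB20 differed between the sets as well, by -1.004, 0.82 and -0.70 (limma adjusted p = 0.000388, 0.0119 and 0.0216). The difference of ZBTB20 missed the adjusted threshold without humanized HuR KD 1 (-0.61) or without humanized LacZ 3 (-0.64), at an adjusted p of at most 0.0539.

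**Figure D4:**
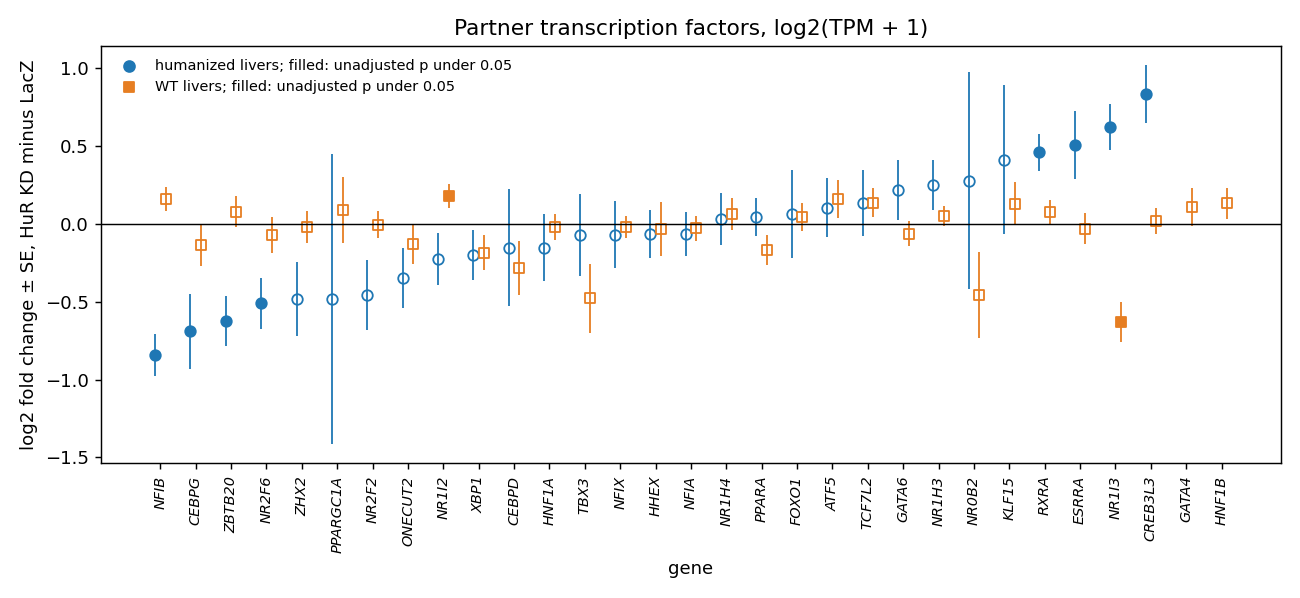
Log2 fold change with SE of each tested partner transcription factor, HuR KD minus LacZ, on the log2(TPM + 1) scale, for humanized (circles) and WT livers (squares), with filled symbols at a limma unadjusted p under 0.05. NR1I3 is filled in both sets, at 0.62 and -0.63.

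Products of hepatocytes, listed as markers of the cell type and not chosen as targets of the factors, were counted next. Of 36 hepatocyte products tested in humanized livers, 3 were called higher and 2 lower, against 5 higher and 1 lower of 36 in WT livers. These are 13.9% and 16.7% of the list, where 11.5% and 16% of all genes were called. MTTP, which loads lipid onto apolipoprotein B, was lower in both. In humanized livers it fell from 224 ± 32.6 to 109 ± 15.3 TPM (log2 change -1.02, limma adjusted p = 0.0467). That adjusted p ran from 0.0226 to 0.173 over 18 alternative settings, so MTTP did not pass adjustment under all of them. In WT livers the log2 change of Mttp was -0.22 (limma adjusted p = 0.207), and the responses differed by -0.80 (limma adjusted p = 0.00623). RBP4, HP and F7 rose in humanized livers by 0.53, 0.65 and 0.45 on the log2 scale (limma adjusted p = 0.148, 0.273 and 0.306) and PROC fell by 0.43 (limma adjusted p = 0.391). The calls of RBP4, F7 and PROC were lost under 2, 1 and 5 of 18 alternative settings. In WT livers Asgr2, Cyp8b1 and G6pc rose by 0.32, 0.42 and 0.79 (limma adjusted p = 0.0637, 0.072 and 0.12). The median log2 change of the list was 0.01 in humanized and 0.08 in WT livers, where that of all genes was -0.05 and 0.03.

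Noncoding genes beside the members were read as well, where strand cannot be told from the sources. LINC00261, the noncoding neighbour of FOXA2, had a log2 change of -0.42 in humanized livers with no overlap (limma adjusted p = 0.335), called in 15 of 18 alternative settings, while FOXA2 stood at 0.11. Prox1os, which lies opposite Prox1, rose by 0.49 in WT livers (limma adjusted p = 0.132), while Prox1 stood at -0.02. HNF4A-AS1 and Hnf4aos were not called, at -0.10 and 0.12.

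The last question was how high each factor stood in control livers of each species. The tables were normalized apart. The human one carries mitochondrial ribosomal RNA, which the mouse table lists at 0, and protein-coding genes took 28.9% to 37.8% of TPM in humanized and 75.6% to 77.6% in WT livers. Levels are therefore placed side by side with no test, as deposited and after rescaling to protein-coding genes. Human values come from human cells only, read through a joint human and mouse index, and mouse values from all cells of the liver. Macrophage markers summed to 624 to 850 TPM in WT LacZ livers and to 0 to 1.24 TPM among human genes of humanized LacZ livers. The part of cell mix or of the joint index in these levels was not tested. Within humanized LacZ livers CEBPA led at 170 ± 57.8 TPM, followed by HNF4A at 45.5 ± 5.03, PROX1 at 29.98 ± 3.09 and CEBPB at 21.6 ± 3.89 TPM (SD, n = 4 each), and the ranges of these 4 did not overlap from one to the next. From CEBPB down, neighbours did overlap, so that the order of CEBPB and of FOXA3 (16.7 ± 3.69 TPM), ONECUT1 (15.2 ± 3.03), FOXA2 (12.4 ± 2.87), FOXA1 (11.6 ± 1.88) and NR5A2 (10.7 ± 1.19) is not resolved. Without LacZ 2, the deeper control, the order of the 9 was the same, with CEBPA at 193.3 TPM and HNF4A at 46.1 TPM.

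Within WT LacZ livers Hnf4a led at 473 ± 43.0 TPM, followed by Cebpa at 276 ± 31.9, Cebpb at 192 ± 34.5, Foxa3 at 99.4 ± 9.84, Prox1 at 64.9 ± 7.21, Nr5a2 at 39.4 ± 3.55 and Foxa2 at 20.9 ± 0.869 TPM (SD, n = 6 each). None of these neighbours overlapped in range, whereas Foxa1 at 8.81 ± 2.53 and Onecut1 at 4.98 ± 2.36 TPM did. The order was the same whichever of the 6 livers was left out. Among protein-coding genes Hnf4a ranked 215 of 16660 and HNF4A 778 of 15155, Cebpa ranked 340 and CEBPA 187, and Onecut1 ranked 8317 and ONECUT1 2441.

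HNF4A and CEBPB were higher in whole mouse livers than in the human cells of humanized livers on either scale. The mouse level was 10.4 times the human one for HNF4A as deposited and 4.48 times after rescaling, and for CEBPB it was 8.88 and 3.76 times. FOXA3 was 5.94 and 2.59 times and NR5A2 was 3.67 and 1.57 times as high in the mouse. ONECUT1 was the reverse, with the human level 3.06 times the mouse one as deposited and 7.17 times after rescaling, and FOXA1 likewise at 1.32 and 3.05 times, with overlapping ranges as deposited. For CEBPA, FOXA2 and PROX1 the species with the higher mean depended on the scale. They were 1.62, 1.68 and 2.16 times as high in the mouse as deposited. After rescaling they were 1.40, 1.36 and 1.07 times as high in the human livers. The ranges of CEBPA overlapped between the species on either scale, and those of PROX1 after rescaling. As a share of the 9 genes together, CEBPA made up 49.9% ± 8.05 and HNF4A 13.9% ± 1.90 in humanized controls (SD, n = 4), while Hnf4a made up 40.1% ± 2.37 and Cebpa 23.4% ± 2.26 in WT controls (SD, n = 6).

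**Figure D5:**
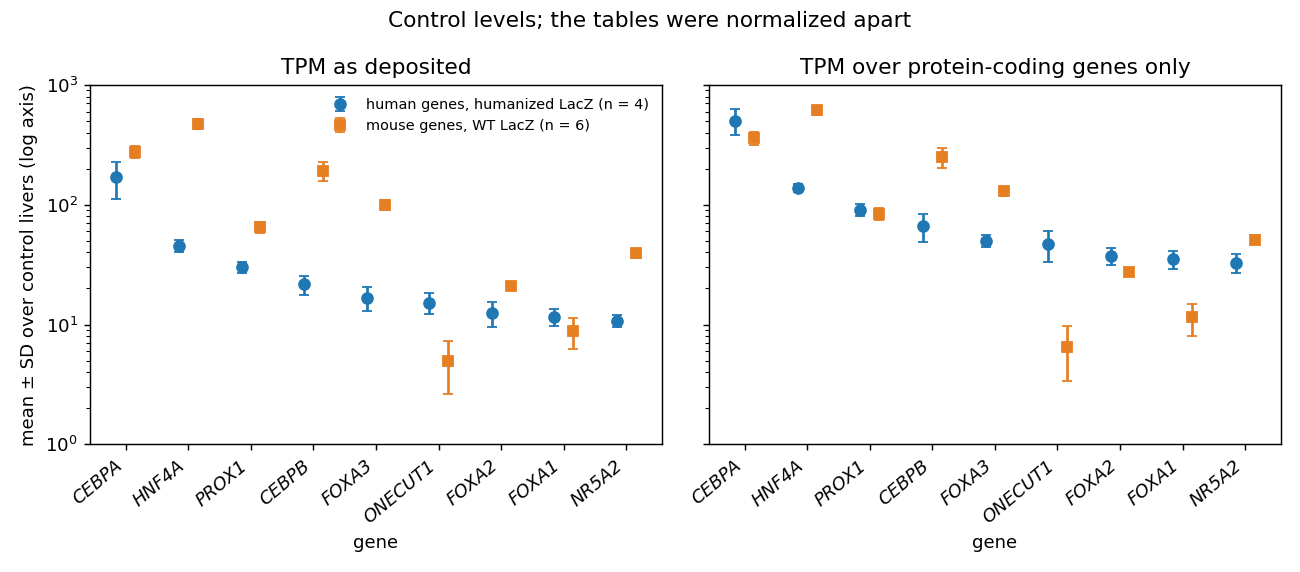
Mean and SD of each member in LacZ livers on a log axis, for human genes in 4 humanized livers (circles) and mouse genes in 6 WT livers (squares), as deposited TPM on the left and rescaled to protein-coding genes on the right. HNF4A and CEBPB are higher in the mouse in both panels, and ONECUT1 and FOXA1 in the human livers.

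Finally, it was asked whether the factors varied together from liver to liver. After subtracting group means, the 36 pairs of members had correlations from -0.92 to 0.86 with a median of 0.07 in 8 humanized livers, and from -0.62 to 0.85 with a median of 0.03 in 12 WT livers. The livers of a pair share a library and its depth, and no test was made. The strongest human pair was FOXA3 with CEBPB at r = -0.92 (rho = -0.86), the genes that moved with depth in opposite ways. In WT livers Cebpa and Onecut1 stood at r = 0.85 (rho = 0.80) and Foxa1 and Cebpa at r = 0.75 (rho = 0.73). Leaving out the 2 livers farthest from the median of Cebpa gave r = 0.67 for the former pair. Leaving out the 2 farthest for Foxa1 gave r = 0.74 for the latter. The shallow library LacZ 2 held the highest control value of Cebpa, Onecut1 and Foxa1.

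For each mouse member, the protein-coding gene of 11326 most like it over the 12 WT livers was found by the same correlation, which, as the highest of many, carries no p. Hnf4a was closest to Oplah, an oxoprolinase gene (r = 0.92, rho = 0.87), Foxa1 to Wipf2 (r = 0.97, rho = 0.95), Foxa2 to the myosin gene Myo10 (r = 0.91, rho = 0.83) and Foxa3 to Apeh (r = 0.93, rho = 0.90). Cebpa was closest to Tenm3 (r = 0.96, rho = 0.94), Cebpb to the transporter gene Abcd4 (r = 0.88, rho = 0.88) and Onecut1 to Zdhhc7 (r = 0.98, rho = 0.92). Prox1 was closest to the nucleoporin gene Nup93 (r = 0.92, rho = 0.92) and Nr5a2 to Kctd11 (r = 0.97, rho = 0.92). Without the 2 livers farthest from the median, r for these 9 pairs lay between 0.86 and 0.95.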

How the data were processed

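Per the study's methods and the labels, total RNA libraries were strand-specific, reads were trimmed, aligned with HISAT2 (humanized livers to a joint human and mouse index) and counted per gene with featureCounts from Subread, against GRCh38 and mm10. The authors deposited the values as TPM, each liver summing to 1000000; the TPM formula and the strand setting are not given in the sources used here. Every liver's column was mapped to its label.

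HuR KD was compared with LacZ within each table by limma 3.58.1 (R 4.3.3) on log2(TPM + 1), with a trended prior, for genes with a mean of at least 1 TPM. Fold changes on this scale understate those of low genes. Calls were made at an unadjusted p under 0.05, the study's threshold, and at a Benjamini-Hochberg adjusted p under 0.05 over the whole table. Single genes were also given two-sided exact permutation tests over 70 groupings (humanized) or 924 (WT). Responses of the sets were compared in a joint limma fit of 20 livers. P-values measure the spread between livers; no 2 livers of a group agreed within sampling noise.

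Whole reads were recovered from the TPM steps at a tolerance of 0.02, with 100% of 18702 human and 25110 mouse eligible genes solved, and gave the depths and a voom alternative. Tested on simulated data, the recovery solved 2874 genes and was right for 99.62% of those solved. Simulated log2 shifts of 1.5 in 200 genes were called in 91% of them in the humanized comparison (12738 genes) and in 98.5% in the WT comparison (15090 genes). After adjustment these shares were 68.5% and 91%. That shift is larger than the change of any member, so the recovery of changes of their size was not tested.

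Other settings were a pseudocount of 0.1, no filter or a mean of 5 TPM, median-of-ratios and quantile scaling, no trend, the replicate number as a block, leaving out each liver and, chosen after seeing the data, voom, rescaling to protein-coding genes and leaving out the 2 deeper humanized livers. Relations with depth used scipy, with 100000 resamples for WT livers. Sequences were read from GENCODE M21 (GRCm38, the build of the mouse table) with Python 3.11.15; 1 further motif search is not reported here. Members and lists were chosen with earlier results of these data known. Named genes were all members, the up to 3 genes with the smallest p in each direction of each other list among those called, and the most alike gene of each member.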

Additional observations from a re-analysis of the deposited data

Results flagged for a closer look

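Foxa1 stood at 13.8 TPM in WT LacZ 2, where the other 5 controls lay between 6.78 and 8.87 TPM, and Onecut1 stood at 9.48 TPM in the same liver, where the others lay between 3.32 and 5.36 TPM. Both gaps passed Dixon's 95% critical value for 6 livers. This was the library with 1423985 reads, in which 27 reads of Foxa1 and 23 of Onecut1 were counted, and the part of its depth was not tested. Of 36 groups checked 2 stood out in this way, and chance alone marks about 1 in 20.

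The response of FOXA1 differed between humanized and WT livers by -0.90 on the log2 scale (joint limma fit, adjusted p = 0.0336), with all 4 humanized HuR KD livers below their controls. Other differences between the sets in the same fit were those of NR1I3 (1.25, adjusted p = 0.00114), NFIB (-1.004, adjusted p = 0.000388), CREB3L3 (0.82, adjusted p = 0.0119), MTTP (-0.80, adjusted p = 0.00623), RELN (-1.28, adjusted p = 0.00242) and ZBTB20 (-0.70, adjusted p = 0.0216).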

How the results depend on the processing

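FOXA1 stayed lower and called in humanized livers under all 18 alternatives, from -1.01 to -0.77 with a limma adjusted p of 0.0619 to 0.291, and Cebpb in WT livers under all 21, from -0.61 to -0.44 with an adjusted p of 0.0645 to 0.261; the counts of 1 and 0 members called held throughout in both sets. The count of members that differed between the sets was 0 to 1 when single livers were left out. Over all genes, 27 human genes passed adjustment, against 1 with no filter, 60 at a mean of 5 TPM (where 931 genes were called before adjustment), 66 with median-of-ratios factors, 56 with quantile scaling, 0 without the trend (1461 were called before adjustment with it), 63 with voom, 42 over protein-coding genes and 172 without the pair of deeper livers, and 0 to 172 without single livers. In WT livers 134 genes passed, against 60, 221, 255, 272, 54 and 530 with no filter, a mean of 5 TPM, median-of-ratios factors, quantile scaling, no trend and voom, and 30 to 371 without single livers. The cause of these shifts was not tested.

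The fit with a replicate block left 0 human and 17 mouse genes after adjustment and changed no member's call. The numbers are not stated to pair livers, and same-numbered livers deviated together by r = -0.25 to 0.14 (humanized) and -0.14 to 0.21 (WT). SPP1 and Nr1i2 were no longer called under it.

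Members without a call changed sign near 0. With median-of-ratios factors FOXA3 stood at 0.042 and ONECUT1 at 0.024, with quantile scaling HNF4A at 0.0018, FOXA3 at 0.055 and ONECUT1 at 0.021, over protein-coding genes HNF4A at 0.0081, FOXA3 at 0.044, ONECUT1 at 0.034 and Foxa2 at 0.0046, and with voom ONECUT1 at 0.020 and Foxa2 at 0.0064. Without the pair of deeper livers HNF4A stood at 0.022, FOXA2 at -0.014, FOXA3 at 0.26 and CEBPB at -0.061. Leaving out single livers gave, in humanized livers, HNF4A -0.14 to 0.037, FOXA2 -0.053 to 0.20, FOXA3 -0.32 to 0.36, CEBPA -0.024 to 0.39, CEBPB -0.13 to 0.27 and ONECUT1 -0.22 to 0.065; in WT livers, Foxa1 -0.051 to 0.14, Foxa2 -0.062 to 0.052, Cebpa -0.061 to 0.039 and Prox1 -0.074 to 0.037; and between the sets, FOXA2 -0.047 to 0.20, FOXA3 -0.44 to 0.23, CEBPA -0.0019 to 0.41, CYP8B1 -0.28 to 0.042 and G6PC -0.84 to 0.10. Depth limits the low members, with as few as 30 reads of FOXA1 and 23 of Onecut1 in a liver.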
